A study of Mus musculus with 18 samples.

Results

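The genes described here are 10 members of the bone morphogenetic protein (BMP) pathway: the ligand genes Bmp2, Bmp4 and Bmp6, the secreted regulator Bmper, the receptor genes Eng, Acvrl1 and Bmpr2, and the target genes Id1, Id3 and Smad6. They are a list of gene names with no threshold on their values, and all 10 were found among the 35727 gene IDs of the count table. All 10 also passed the filter on low counts that left 14864 genes for testing. Levels are CPM, that is, counts scaled to a common library depth with the TMM factors of edgeR, differences are on the log2 scale, ± gives the SE of such a difference, and a gene was called higher or lower at an edgeR adjusted p under 0.05 over all tested genes.

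BMP ligands are secreted dimers that bring together type I and type II serine/threonine kinase receptors, and the activated type I receptor phosphorylates Smad1, Smad5 and Smad9, which enter the nucleus with Smad4. In endothelium the type I receptor Acvrl1 (ALK1), the coreceptor endoglin (Eng) and the type II receptor Bmpr2 form the complex that binds BMP9 (Gdf2) and BMP10 with high affinity, and loss of one copy of ENG or ACVRL1 causes hereditary haemorrhagic telangiectasia in people. Id1, Id3 and Smad6 are direct targets of the pathway: the Id proteins block basic helix-loop-helix transcription factors, and Smad6 is an inhibitory Smad that feeds back on the receptors.

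Polyadenylated RNA was sequenced from 18 libraries of mouse cells at day 7 in EGM2, an endothelial growth medium, in 6 groups of 3: control fibroblasts, iECs and native endothelial cells (ECs), each from heart and from lung. The iEC libraries carry the word SEG in their titles; iEC stands in this field for induced endothelial-like cells, and the labels give neither the meaning of SEG nor how the cells were made, and no strain, age or genotype. The stated purpose was to examine how organ-specific endothelial identity is acquired. Nothing in the labels says whether the 3 libraries of a group came from separate animals or cultures, so the p-values measure the spread between these libraries, which may be technical.

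Library totals ranged from 17747632 to 23775372 estimated counts. Of 10 endothelial markers, 9 reached 1 CPM in either kind of iEC and 10 in either kind of native EC. They summed to 0.222% to 0.238% of counts in heart iECs and 0.171% to 0.184% in heart ECs, and to 0.218% to 0.249% in lung iECs and 0.288% to 0.315% in lung ECs. Single markers differed in either direction: Erg, an endothelial transcription factor, averaged 1024 and 1033 CPM in heart and lung iECs against 51.5 and 85.5 in heart and lung ECs, and Kdr, a VEGF receptor, 194 and 271 against 47.4 and 77.9. In CPM the 10 markers summed to 2199 to 2352 in heart iECs and 1971 to 2297 in lung iECs, so Erg alone was a large part of both. In heart and lung ECs they summed to 1761 to 1939 and 2788 to 2871 CPM, of which Erg was a small part. The tight junction gene Cldn5 averaged 0.977 and 0.416 CPM in iECs against 27.7 and 54.8 in ECs, and Vwf 22.2 and 3.73 against 276 and 195. Fibroblasts also held endothelial marker RNA, summing to 0.0228% to 0.0251% of counts in heart (10 of 10 at 1 CPM or more) and 0.00188% to 0.0025% in lung (5 of 10). The EC and iEC cultures also held fibroblast marker RNA: 10 such markers summed to 1.97% to 2.04% of counts in heart ECs, 0.589% to 0.76% in lung ECs, 1.82% to 1.97% in heart iECs and 1.21% to 1.66% in lung iECs, against 2.66% to 2.79% in heart fibroblasts and 3.47% to 4.24% in lung fibroblasts. Col1a1, Col1a2 and Col3a1 made up most of these sums, in heart iECs averaging 8851, 6311 and 2451 CPM of 17880 to 19461. Other markers behaved differently: Dcn averaged 2177 CPM in heart fibroblasts, 183 in heart iECs and 2184 in heart ECs. In the same order Pdgfra averaged 994, 174 and 449 CPM, and Pdgfrb 930, 428 and 374. In lung Dcn averaged 492, 118 and 587 CPM, and Pdgfra 871, 219 and 107. Macrophage and leukocyte markers (10 of 10 at 1 CPM or more) summed to 0.862% to 1.02% of counts in lung ECs, 0.276% to 0.423% in lung iECs and at most 0.139% in the other groups. Smooth muscle and pericyte markers summed to 0.142% to 0.162% in heart iECs and 0.349% to 0.437% in lung iECs, against at most 0.0308% and 0.123% in heart and lung fibroblasts. Native ECs lay between these, at 0.0439% to 0.0587% in heart and 0.141% to 0.236% in lung. Mesothelial markers reached at most 0.0511%, epithelial ones 0.0313%, lymphatic ones 0.113% and cardiomyocyte ones 0.00845% of counts in any library. The part of these cells in the results below was not tested, and in bulk RNA fewer cells of a type and less RNA per cell cannot be told apart. Lung fibroblast library 1 stood apart from its replicates by gene length, compared over fewer genes than were tested. The 1098 longest of the genes compared (at least 10337 exon bases) lay at a median of -0.39 log2 units from the group mean, and the 1098 shortest (at most 1879 bases) at 0.36.

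The promoters of Smad6 and Bmp4 are shown because these genes were higher in iECs than in fibroblasts of both organs. That of Eng is shown because its calls in iECs differed in direction between heart and lung, with the limits given below. A further reason for the choice is that the bases before these start sites lie outside every GENCODE exon. RefSeq sequences on GRCm38.p6 were matched for 7 of the 10 genes (Bmp4, Bmp6, Bmper, Eng, Bmpr2, Id3 and Smad6) and not for Bmp2, Acvrl1 and Id1. Each line holds 240 bases before the first transcribed base and its first 10 bases, read 5′ to 3′ on the strand of the gene, at chr9:64022050-64022299 (minus strand) for Smad6, chr14:46390660-46390909 (minus strand) for Bmp4 and chr2:32646355-32646604 (plus strand) for Eng. Capitals mark matches, on both strands, to 5 strings: the Smad palindrome GTCTAGAC, the GC-rich Smad site GGCGCC, the ETS site CCGGAA, the Sox core ACAAT and the TATA box TATAAA. The ETS site is a longer form of the core GGAA, which was not marked.
Smad6: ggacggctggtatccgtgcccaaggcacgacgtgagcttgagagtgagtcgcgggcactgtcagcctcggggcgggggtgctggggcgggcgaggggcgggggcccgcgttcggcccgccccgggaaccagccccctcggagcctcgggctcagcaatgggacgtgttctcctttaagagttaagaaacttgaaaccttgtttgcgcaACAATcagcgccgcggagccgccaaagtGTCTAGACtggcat
Bmp4: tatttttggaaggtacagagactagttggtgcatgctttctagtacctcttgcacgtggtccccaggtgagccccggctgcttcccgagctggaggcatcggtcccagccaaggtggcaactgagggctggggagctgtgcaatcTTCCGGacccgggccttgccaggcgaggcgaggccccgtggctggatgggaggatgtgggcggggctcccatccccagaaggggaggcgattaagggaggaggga
Eng: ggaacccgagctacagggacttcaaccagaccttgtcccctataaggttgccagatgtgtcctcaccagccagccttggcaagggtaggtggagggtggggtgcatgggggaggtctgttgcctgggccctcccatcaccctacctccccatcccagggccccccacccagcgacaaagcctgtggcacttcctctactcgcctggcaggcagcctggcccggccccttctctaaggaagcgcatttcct
The Smad6 window held the palindrome from position -4 to 4 around the start (there is no position 0) and a Sox core from -32 to -28. Of 32851 RefSeq promoter windows of this length 0.158% held the palindrome and 27.5% a Sox core. In the Bmp4 window the ETS site, printed as its reverse complement TTCCGG, lay from -95 to -90, and 12.6% of windows held one. A match to such a string is a description of the letters, not evidence of binding. The Eng window held none of the 5 strings, though it holds the shorter letters GGAA.

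**Figure D1:**
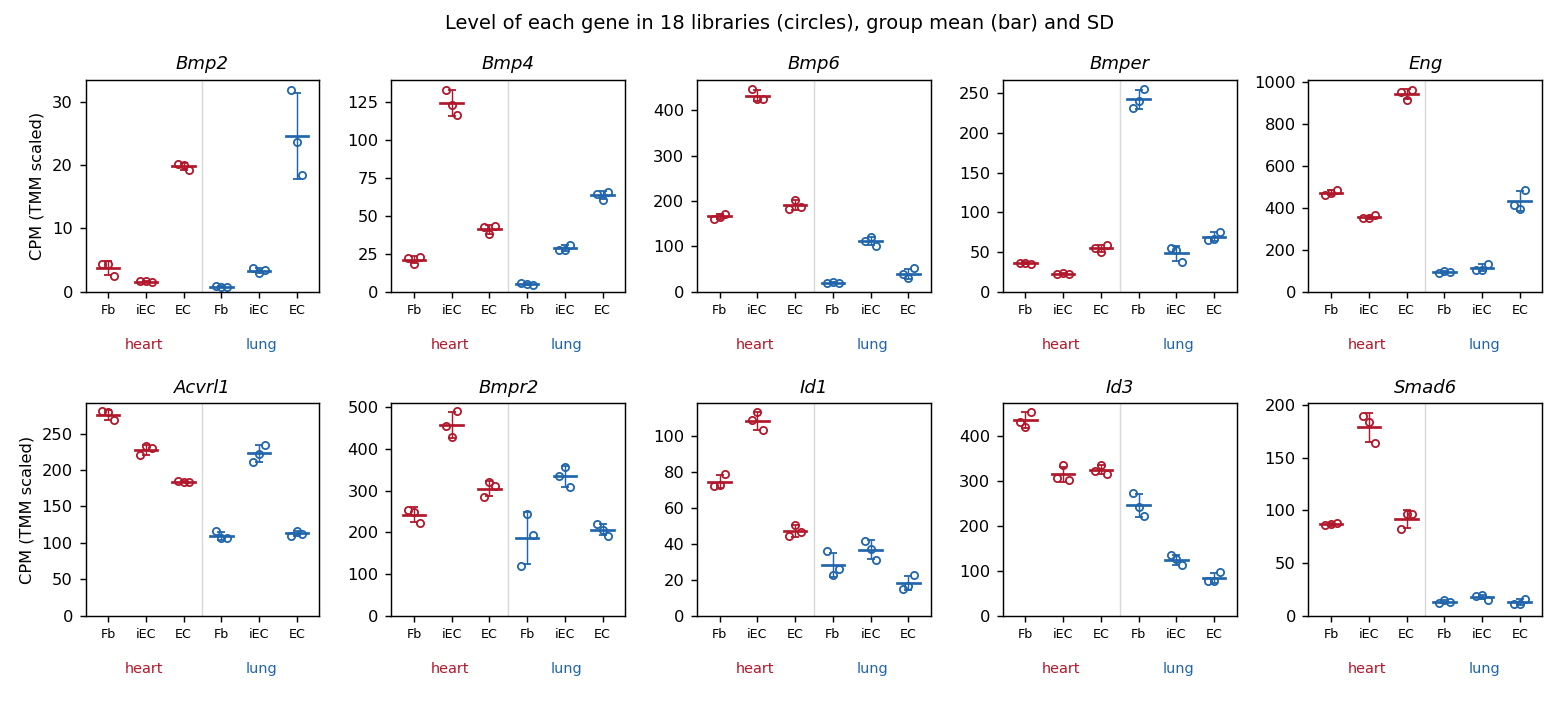
CPM of each gene (vertical axis, from 0) in every library (circles) with the mean (bar) and SD of each group of 3, for fibroblasts (Fb), iECs and native ECs of heart (red) and lung (blue). Bmp4, Bmp6, Bmpr2, Id1 and Smad6 had their highest mean in heart iECs, and all 9 lung libraries lay below all 9 heart libraries for Smad6.

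The ligand genes Bmp4 and Bmp6 were higher in iECs than in fibroblasts of either organ. Bmp4, a ligand with broad roles in mesoderm and vessel formation (ENSMUSG00000021835; chromosome 14, 46383520 to 46390669, minus strand of GRCm38), stood in heart at 22.3, 18.5 and 22.7 CPM in fibroblasts, 133, 123 and 116 in iECs and 42.3, 37.7 and 43.2 in ECs. In lung it stood at 5.61, 5.22 and 4.2 CPM in fibroblasts, 27.6, 27.4 and 30.7 in iECs and 64.5, 60.3 and 65.6 in ECs. No 2 groups overlapped, and heart iECs were highest in one organ while native ECs were highest in the other. The difference between iECs and fibroblasts was 2.55 ± 0.101 in heart and 2.52 ± 0.112 in lung (adjusted p = 3.89e-13 and 2.64e-12), and the responses of the organs differed by -0.03 (95% interval -0.35 to 0.29, adjusted p = 0.914). Native ECs exceeded fibroblasts by 0.96 ± 0.0993 in heart and 3.67 ± 0.113 in lung. The iECs stood above ECs in heart (1.59 ± 0.0966) and below them in lung (-1.15 ± 0.0969), an opposite order whose difference of -2.74 ± 0.137 passed the test (adjusted p = 1.42e-10).

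Bmp6, a ligand of endothelial and stromal cells that also regulates iron through hepcidin (ENSMUSG00000039004; chromosome 13, 38345107 to 38500302, plus strand), was the most abundant of the 3 ligand genes per exon length in every group except lung ECs. Heart fibroblasts held 160, 164 and 172 CPM, heart iECs 446, 426 and 425, and heart ECs 182, 203 and 188. Lung fibroblasts held 18.8, 21.1 and 19.4 CPM, lung iECs 111, 121 and 102, and lung ECs 38.3, 29.6 and 52. Heart groups and lung groups did not overlap, and in either organ the iECs were highest. The rise over fibroblasts was 1.38 ± 0.132 in heart and 2.50 ± 0.141 in lung, larger in lung by 1.11 ± 0.188 (adjusted p = 0.000248). Exons of Txndc5, an abundant gene on the opposite strand, overlap exons of Bmp6, and whether the counting used strand is not given in the sources used here.

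Bmp2, a ligand known for its roles in bone and heart valve formation (ENSMUSG00000027358; chromosome 2, 133552159 to 133562885, plus strand), was highest in native ECs. In heart it read 4.33, 4.37 and 2.54 CPM in fibroblasts, 1.64, 1.63 and 1.55 in iECs and 20.1, 20 and 19.2 in ECs. The lung values were 0.973, 0.766 and 0.722 CPM in fibroblasts, 3.75, 2.96 and 3.38 in iECs and 31.9, 23.6 and 18.4 in ECs. Heart iECs lay below heart fibroblasts and lung iECs above lung fibroblasts, with no overlap in either organ. These differences were -1.23 ± 0.229 and 2.04 ± 0.258 (adjusted p = 0.000197 and 2.83e-06), and they differed from each other by 3.26 ± 0.345 (adjusted p = 1.8e-06). Against native ECs, iECs were lower by a log2 difference of -3.62 ± 0.216 in heart and -2.87 ± 0.2 in lung.

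Per kilobase of exon, the 13 ligand genes considered summed to 93.6 ± 1.07 CPM in heart fibroblasts, 215 ± 6.91 in heart iECs and 109 ± 6.3 in heart ECs (SD, n = 3). The lung sums were 24.1 ± 1.95 in fibroblasts, 59.8 ± 3.14 in iECs and 68.8 ± 11.2 in ECs. Bmp6 made up 51.5% ± 0.648 of that sum in heart iECs and 47.8% ± 1.64 in lung iECs, but only 14.7% ± 1.82 in lung ECs, where Bmp4 held 41.6% ± 4.92, and 21.2% ± 2.58 in lung fibroblasts, where Gdf6 held 54.4% ± 5.34. Of 10 other ligand genes 6 passed the filter on low counts, and 1 was called higher and 2 lower in iECs than in fibroblasts of either organ, where 26% and 24.6% of all tested genes were called higher and lower in heart and 25.9% and 24.7% in lung. Bmp5, a ligand close in sequence to Bmp6, stood at 9.02 to 12.8 CPM in lung iECs and 0.292 to 1.06 in heart iECs. This organ difference was not particular to iECs. Per kilobase of exon, Bmp5 averaged 1.62, 2.61 and 1.66 CPM in lung fibroblasts, iECs and ECs. The heart averages were 0.0347, 0.155 and 0.0339 in the same order. Gdf2 and Bmp10, which encode the high-affinity ligands of Acvrl1, did not pass the filter: Gdf2 had 0 counts in both iEC groups, which allows up to 0.043 CPM in heart iECs and 0.0461 in lung iECs (3 counts over the group, counting error only), and 36 counts over the 3 lung fibroblast libraries, while Bmp10 had at most 6 counts in any group.

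Bmper encodes a secreted, cysteine-rich protein that binds BMPs and can raise or lower their signal depending on its dose (ENSMUSG00000031963; chromosome 9, 23223076 to 23485200, plus strand). Its heart values were 36.6, 36.6 and 34.4 CPM in fibroblasts, 22.1, 23.2 and 22.5 in iECs and 55.5, 50.3 and 58.5 in ECs. Lung fibroblasts held 231, 240 and 255 CPM, lung iECs 55.2, 52.7 and 37.3, and lung ECs 65.1, 66.8 and 75.8. Lung fibroblasts stood far above every other group, and iECs were lowest in either organ. The fall from fibroblasts to iECs was -0.67 ± 0.113 in heart and -2.32 ± 0.113 in lung, and native ECs lay above fibroblasts in heart (0.61 ± 0.111) and below them in lung (-1.81 ± 0.11), a difference between organs of -2.42 ± 0.156 (adjusted p = 1.81e-09).

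Of the receptor genes, Eng was the one that set native ECs apart, while Acvrl1 and Bmpr2 were higher in iECs than in ECs. Eng, a coreceptor and a classical marker of endothelium that stromal cells also carry (ENSMUSG00000026814; chromosome 2, 32646595 to 32682669, plus strand), read 460, 473 and 486 CPM in heart fibroblasts, 354, 351 and 365 in heart iECs and 952, 917 and 962 in heart ECs. The lung libraries read 89.7, 97.8 and 93.5 CPM for fibroblasts, 105, 102 and 133 for iECs and 413, 397 and 485 for ECs. Within an organ no groups overlapped, and heart fibroblasts overlapped lung ECs. Compared with fibroblasts, Eng was lower in heart iECs (-0.41 ± 0.0908, adjusted p = 0.00102) and slightly higher in lung iECs (0.28 ± 0.0918, adjusted p = 0.0173), a difference between organs of 0.69 ± 0.129 (adjusted p = 0.00065). The lung call rested on lung iEC library 3, without which the difference was 0.15 ± 0.0825 (adjusted p = 0.158), and the heart call was lost when libraries were scaled by their totals (-0.22, adjusted p = 0.057). Against ECs, iECs were lower by -1.40 ± 0.0923 in heart and -1.93 ± 0.0941 in lung. Fpgs, on the opposite strand, shares exon bases with Eng.

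Acvrl1, the type I receptor of endothelial BMP signalling (ENSMUSG00000000530; chromosome 15, 101128522 to 101145336, plus strand), was lower in native ECs than in fibroblasts of the heart (-0.58 ± 0.0611, adjusted p = 4.02e-07). In lung that difference was 0.04 (95% interval -0.09 to 0.17, adjusted p = 0.567; 0.16 and adjusted p = 0.0319 with libraries scaled by their totals). In heart its values were 281, 280 and 269 CPM in fibroblasts, 221, 233 and 231 in iECs and 185, 184 and 184 in ECs. In lung fibroblasts they were 116, 106 and 106 CPM, in iECs 211, 222 and 235, and in ECs 110, 116 and 112. Heart and lung iECs overlapped, as did lung fibroblasts and lung ECs. For Acvrl1 the heart iECs were below their fibroblasts (-0.27 ± 0.0608, adjusted p = 0.000972; -0.09 and adjusted p = 0.224 with libraries scaled by their totals) and the lung iECs above theirs (1.03 ± 0.0617, adjusted p = 1.45e-10). The difference between lung and heart was -1.34 ± 0.0621 in fibroblasts and -0.04 in iECs (95% interval -0.17 to 0.09, adjusted p = 0.673), and the responses of the organs differed by 1.30 ± 0.0865 (adjusted p = 7.63e-09). An antisense gene, Gm16031, overlaps exons of Acvrl1.

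Bmpr2, the type II receptor whose loss underlies heritable pulmonary arterial hypertension (ENSMUSG00000067336; chromosome 1, 59763400 to 59879014, plus strand), was highest in iECs. Heart fibroblasts held 254, 249 and 222 CPM, heart iECs 456, 428 and 491, and heart ECs 284, 320 and 311. The lung libraries held 120, 245 and 194 CPM in fibroblasts, 335, 358 and 308 in iECs and 219, 205 and 192 in ECs. In either organ the iECs lay above the fibroblasts and ECs without overlap, whereas lung fibroblasts and lung ECs overlapped. The rise over fibroblasts was 0.92 ± 0.169 in heart and 0.84 ± 0.169 in lung (adjusted p = 0.000229 and 0.000541), and the difference between the responses was -0.08 (95% interval -0.59 to 0.42). Bmpr2 has 17983 exon bases, and its lowest value is that of lung fibroblast library 1, in which long genes were low. The lung rise was 0.60 ± 0.0998 (adjusted p = 7.62e-05) without that library and 1.09 ± 0.147 (adjusted p = 1.24e-05) without library 2. The difference between the responses was then -0.32 (adjusted p = 0.0828) and 0.16 (adjusted p = 0.588).

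Among type I receptor genes, Acvrl1 held 68.6% ± 2.51 of the summed CPM per kilobase in lung iECs and 41.5% ± 5.37 in lung fibroblasts, where Bmpr1a held 40.8% ± 5.91 (SD, n = 3). In the heart groups its share was 57.9% to 60.3% as a group mean. Of 9 other receptor and coreceptor genes tested, 2 were called higher and 4 lower in iECs than in fibroblasts of the heart (26% and 24.6% of all tested genes), and 2 higher and 5 lower in the lung comparison (25.9% and 24.7%). Tgfbr3 (betaglycan), a coreceptor for TGF-beta and BMP ligands, fell in both, by -1.95 ± 0.115 in heart and -2.23 ± 0.116 in lung, and the coreceptor Rgma fell by -0.67 ± 0.122 and -1.11 ± 0.13.

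**Figure D2:**
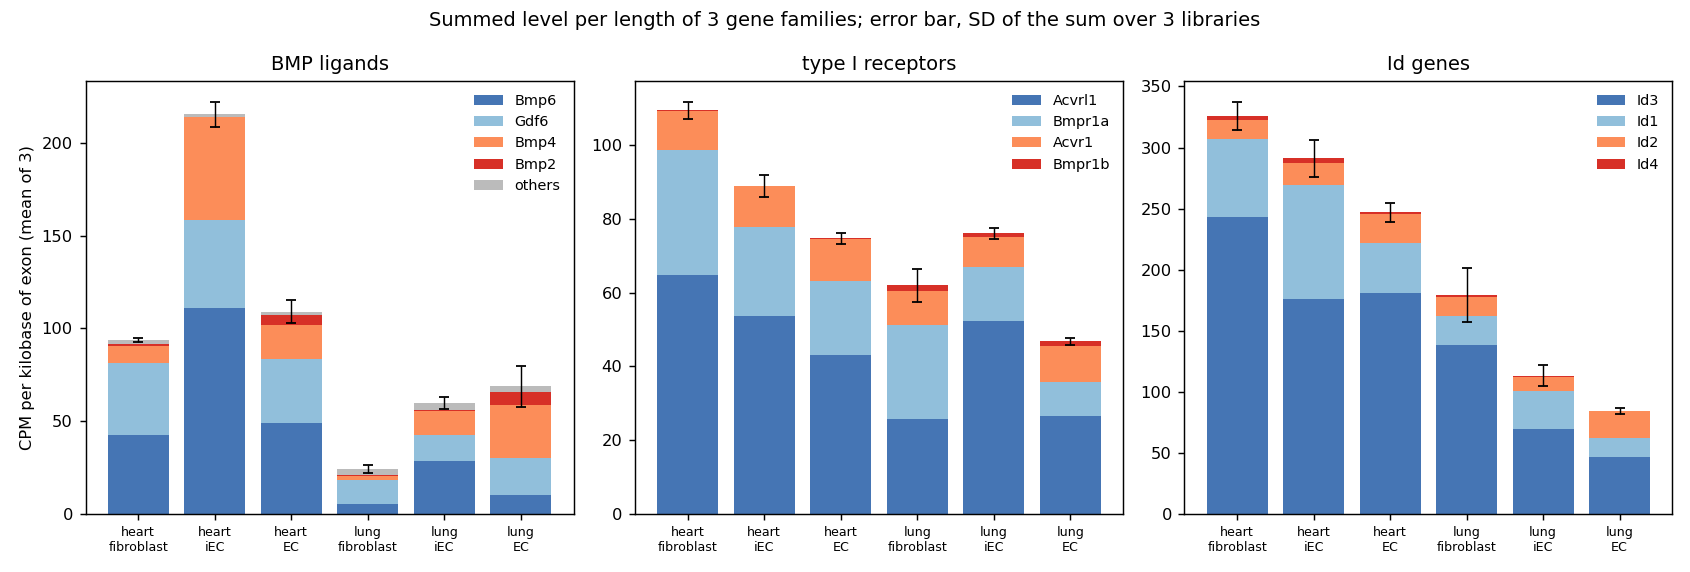
Mean CPM per kilobase of union exon length (vertical axis, from 0) summed over 13 BMP ligand genes, 4 type I receptor genes and 4 Id genes in the 6 groups, with coloured segments for genes and the SD of the sum over 3 libraries as error bar. Ligand sums were highest in heart iECs (215), and Id sums were lower in each lung group (84.5 to 179) than in each heart group (247 to 326).

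The target genes did not move together in iECs: Smad6 rose over fibroblasts while Id3 fell, and Id1 rose in heart, with a lung call that rested on single libraries. Id1, an inhibitor of differentiation that is among the quickest BMP targets in endothelium (ENSMUSG00000042745; chromosome 2, 152736251 to 152737410, plus strand), read 72.3, 72.6 and 78.5 CPM in heart fibroblasts, 109, 113 and 103 in heart iECs and 44, 50.5 and 46.7 in heart ECs. In lung it read 35.7, 22.5 and 26 CPM in fibroblasts, 41.4, 37.2 and 31 in iECs and 14.8, 16.6 and 22.4 in ECs. The heart groups were fully separate, and the lung iECs overlapped the lung fibroblasts. The difference from fibroblasts was 0.54 ± 0.15 in heart iECs (adjusted p = 0.00615) and 0.38 ± 0.156 in lung iECs (adjusted p = 0.0488). The lung call was lost without fibroblast library 2 (0.25, adjusted p = 0.219), fibroblast library 3 (0.33, adjusted p = 0.147), iEC library 1 (0.28, adjusted p = 0.191) or iEC library 2 (0.37, adjusted p = 0.103), and with no filter beyond 1 count (0.42, adjusted p = 0.0502). Without fibroblast library 1 it was 0.59 ± 0.144 (adjusted p = 0.00282). Id1, of 1160 exon bases, is one of the short genes, which were high in library 1. Native ECs were below fibroblasts in heart (-0.66 ± 0.152) and lung (-0.64 ± 0.159), so that iECs exceeded ECs by 1.20 ± 0.153 and 1.03 ± 0.158.

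Id3, the most abundant Id gene per exon length in all 6 groups (ENSMUSG00000007872; chromosome 4, 136143497 to 136145755, plus strand), was highest in fibroblasts. Its heart values were 432, 421 and 454 CPM in fibroblasts, 307, 335 and 303 in iECs and 323, 335 and 315 in ECs. In lung they were 274, 242 and 223 CPM in fibroblasts, 135, 125 and 113 in iECs and 76.8, 77.3 and 96.7 in ECs. Heart iECs and heart ECs overlapped (difference -0.04, 95% interval -0.24 to 0.16), and the 3 lung groups did not overlap. The fall from fibroblasts to iECs was -0.47 ± 0.0948 in heart and -0.99 ± 0.096 in lung, larger in lung by -0.52 ± 0.134 (adjusted p = 0.00777). The share of Id1 in the summed CPM per kilobase of the 4 Id genes was 32.1% ± 0.688 in heart iECs and 19.7% ± 0.404 in heart fibroblasts, and 27.7% ± 1.99 in lung iECs and 13.5% ± 1.92 in lung fibroblasts.

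Smad6 (ENSMUSG00000036867; chromosome 9, 63953076 to 64022059, minus strand), whose promoter holds the Smad palindrome printed above, was low in lung and high in heart iECs. Heart fibroblasts read 85.7, 86.7 and 88.1 CPM, heart iECs 190, 184 and 164, and heart ECs 81.9, 96.6 and 96.2. Lung fibroblasts read 11.5, 14.4 and 12.9 CPM, lung iECs 18.3, 19.5 and 15.2, and lung ECs 11.3, 10.8 and 15.8. Fibroblasts and ECs overlapped in either organ, as did iECs and ECs in lung, and every lung library was below every heart library. Smad6 was higher in iECs than in fibroblasts by 1.05 ± 0.12 in heart and 0.45 ± 0.132 in lung (adjusted p = 7.78e-07 and 0.00783). Native ECs did not differ detectably from fibroblasts, with intervals of -0.18 to 0.33 in heart and -0.31 to 0.25 in lung.

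Heart iECs had 5 of the 10 genes called higher and 5 called lower when set against their fibroblasts, where 26% of all tested genes were called higher and 24.6% lower. In lung iECs 8 were higher and 2 lower than in lung fibroblasts, against 25.9% and 24.7% of all tested genes. The median log2 difference of the 10 was 0.13 in heart and 0.65 in lung, beside 0.02 and 0.00 over all tested genes. Bmp4, Bmp6, Bmpr2, Smad6 and, with the lung limit given above, Id1 were higher in iECs in both organs, a pattern that 15.8% of tested genes had, and Bmper and Id3 were lower in both (15% of tested genes). Bmp2 and, with the limits given above, Eng and Acvrl1 were called lower in heart and higher in lung, as were 1.57% of tested genes. The test of the difference between the organs' responses called 7 of the 10 genes, with 25.2% of all genes called.

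**Figure D3:**
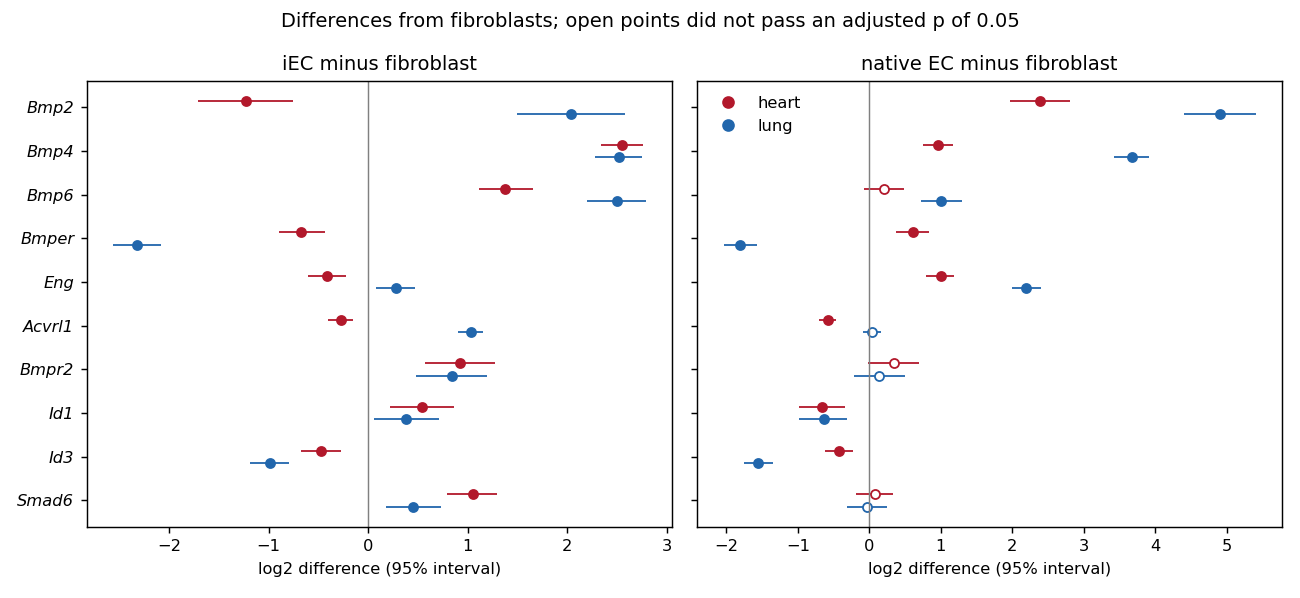
Log2 difference from fibroblasts of the same organ (horizontal axis, with 95% interval) for iECs (left) and native ECs (right) in heart (red) and lung (blue). Points for Bmp2, Eng and Acvrl1 lie on opposite sides of 0 in the 2 organs for iECs, and the points of Bmp2, Bmp4 and Eng lie above 0 in both organs for native ECs.

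In native ECs of heart 4 of the 10 genes were higher and 3 lower than in fibroblasts, beside 24.2% and 23.3% of all tested genes. The counts were also 4 and 3 in lung, beside 29.3% and 28.7% of all tested genes. Bmp2, Bmp4 and Eng were higher in both organs (14.3% of tested genes) and Id1 and Id3 lower in both (14.9%). These comparisons share their fibroblast libraries with those of the iECs. Set directly against ECs, iECs were higher for 6 and lower for 3 of the 10 genes in heart (24.5% and 24.4% of all tested genes), and higher for 6 and lower for 4 in lung (22.2% and 23%). Bmp6, Acvrl1, Bmpr2, Id1 and Smad6 were higher in iECs than in ECs in both organs (13.2% of tested genes), while Bmp2, Bmper and Eng were lower in both (12.4%). For Smad6 the lung groups overlapped, and its lung call was lost with only the groups compared in the fit (0.50, adjusted p = 0.058). A test of whether the EC difference from fibroblasts differed between organs called 7 of the 10 genes, beside 34.5% of all tested genes, and the same test of iECs against ECs called 5, beside 26%. In the latter test Smad6 lay at the threshold (-0.49, adjusted p = 0.0505). It was called with DESeq2 (adjusted p = 0.0435) and without heart iEC library 3, lung EC library 1 or 2, or lung iEC library 2. Bmp6 was called without lung EC library 3 (0.54, adjusted p = 0.00485) and Bmp2 without lung EC library 1 (0.97, adjusted p = 0.0133).

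Between organs the 10 genes leaned one way, towards lower levels in lung. In lung fibroblasts 8 were lower and 1 higher than in heart fibroblasts, beside 23.9% and 24.6% of all tested genes. The 10 endothelial markers also averaged lower in lung fibroblasts, summing to 256 to 283 CPM in heart fibroblasts and 19.1 to 25.5 in lung fibroblasts (Cdh5 averaged 75.5 and 3.17 CPM). Between ECs the marker sums went the other way, with 1761 to 1939 CPM in heart and 2788 to 2871 in lung. Between iECs they overlapped, with 2199 to 2352 CPM in heart and 1971 to 2297 in lung. The part of these markers in the organ differences was not tested. Between iECs 7 were lower and 2 higher in lung (18.9% and 18.9% of all tested genes), and between ECs 7 were lower and 2 higher (23.7% and 24.2%). Medians of the 10 were -1.75, -1.45 and -0.92, against 0.01, -0.02 and 0.02 over all tested genes. Bmp6, Eng, Id1, Id3 and Smad6 were lower in lung in all 3 cell types, a pattern of 7.37% of tested genes, and Bmper was higher in all 3 (7.5%). For Smad6 the differences were -2.75 ± 0.133 in fibroblasts, -3.34 ± 0.133 in iECs and -2.85 ± 0.132 in ECs, and for Bmp6 they were -3.07 ± 0.144, -1.95 ± 0.134 and -2.26 ± 0.137. Bmper was higher by 2.75 ± 0.115 in fibroblasts and 1.10 ± 0.113 in iECs, and by 0.34 ± 0.109 in ECs, a call lost without heart EC library 2 (0.28, adjusted p = 0.0772) or lung EC library 3 (0.27, adjusted p = 0.0708). The lower Bmpr2 of lung iECs (-0.46 ± 0.168, adjusted p = 0.0411) lost its call when any 1 of the 6 libraries was left out.

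**Figure D4:**
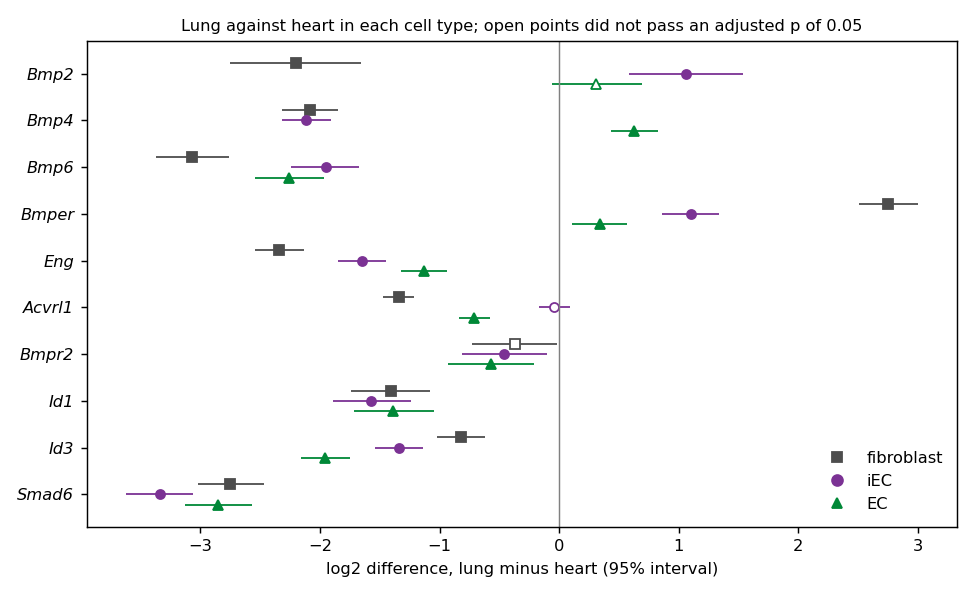
Log2 difference between lung and heart (horizontal axis, with 95% interval) of each gene in fibroblasts (squares), iECs (circles) and native ECs (triangles). The points of Bmp6, Eng, Id1, Id3 and Smad6 lie below 0 in all 3 cell types and those of Bmper above it.

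Other pathway genes differed between the organs in either direction, with more called lower in lung than higher. Of 46 tested, 17 were lower and 11 higher in lung for fibroblasts, 22 and 11 for iECs, and 20 and 8 for ECs. Their medians were -0.22, -0.36 and -0.23. Of 8 other target genes, 4 were called lower and 1 higher in lung fibroblasts than in heart fibroblasts, 6 lower and 2 higher between iECs, and 3 lower between ECs (medians -0.74, -1.67 and -0.32). Of all tested genes 23.9%, 18.9% and 23.7% were lower in lung in these comparisons and 24.6%, 18.9% and 24.2% higher. The counts of the 46 genes above and of the antagonists below stand against the same shares. Atoh8, a transcription factor induced by BMP9 in endothelium, stood at 96.3 to 111 CPM in heart fibroblasts, 65.6 to 73.5 in heart iECs and 52.3 to 63.7 in heart ECs, against 18 to 21.9, 7.91 to 12.3 and 4.32 to 10.4 in the lung groups. The inhibitory Smad gene Smad7 differed between lung and heart by -1.14 ± 0.0752 in fibroblasts, -2.09 ± 0.0765 in iECs and -1.04 ± 0.0747 in ECs, and Smad9, a BMP-responsive Smad, by -1.63 ± 0.245, -1.99 ± 0.264 and -1.62 ± 0.282. Grem1, a secreted BMP antagonist, read 231, 280 and 257 CPM in lung fibroblasts, 165, 117 and 180 in lung iECs and 327, 396 and 198 in lung ECs. In heart it read 0.261, 1.37 and 1.57 CPM in fibroblasts, 1.77, 1.29 and 2.46 in iECs and 18.6, 7.96 and 12.5 in ECs. No lung library overlapped a heart library for Grem1, and it was called higher in lung for fibroblasts (adjusted p = 1.52e-08), iECs (adjusted p = 8.05e-08) and ECs (adjusted p = 2.89e-07). Over all 16 antagonists and regulators tested, 5 were higher and 3 lower in lung fibroblasts, 4 higher and 7 lower in lung iECs, and 3 higher and 6 lower in lung ECs than in their heart counterparts.

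Between iECs and fibroblasts, 26% of all tested genes were called higher and 24.6% lower in heart, and 25.9% and 24.7% in lung. Of the 16 antagonists 7 were higher and 4 lower in heart iECs, and 5 were higher and 9 lower in lung iECs, so that the lower count in heart and the higher count in lung lay near those shares. Fst (follistatin), which traps activins and some BMPs, rose by 2.58 ± 0.19 in heart iECs and 1.40 ± 0.184 in lung iECs. Chrdl1, a chordin-like BMP antagonist, read 6.83, 3.84 and 7.64 CPM in heart iECs and 35.6, 41.1 and 44.5 in lung iECs, and 0 to 2 CPM in every fibroblast and EC library. It was called higher than in fibroblasts in heart (adjusted p = 0.000176) and in lung, by 5.01 ± 0.36 (adjusted p = 5.17e-09). Crim1, a membrane protein that binds BMPs, rose by 1.80 ± 0.128 and 1.60 ± 0.128, and Twsg1 (twisted gastrulation) fell by -1.20 ± 0.0996 and -1.13 ± 0.0998. Mgp (matrix Gla protein), a BMP inhibitor of vessel walls, fell in lung iECs by -2.66 ± 0.223. Native ECs also lay below fibroblasts for Mgp, further in lung (-5.44 ± 0.254) than in heart (-1.21 ± 0.213). Of the 8 other targets, 3 rose and 1 fell in heart iECs, and 4 rose and 1 fell in lung iECs. Hey1, a transcription factor that answers to Notch as well as to BMP, read 85, 83.2 and 85.2 CPM in heart iECs and 21.2, 24.2 and 17.8 in lung iECs, against at most 2.79 CPM in any other library. Of the 7 Smad and ubiquitin ligase genes 3 rose and 3 fell in heart iECs, and 2 rose and 2 fell in lung iECs. Smad7 rose by 0.91 ± 0.0737 in heart iECs, and Smurf2, a ligase that degrades receptors and Smads, rose by 0.73 ± 0.0904 in heart and 0.66 ± 0.0905 in lung.

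**Figure D5:**
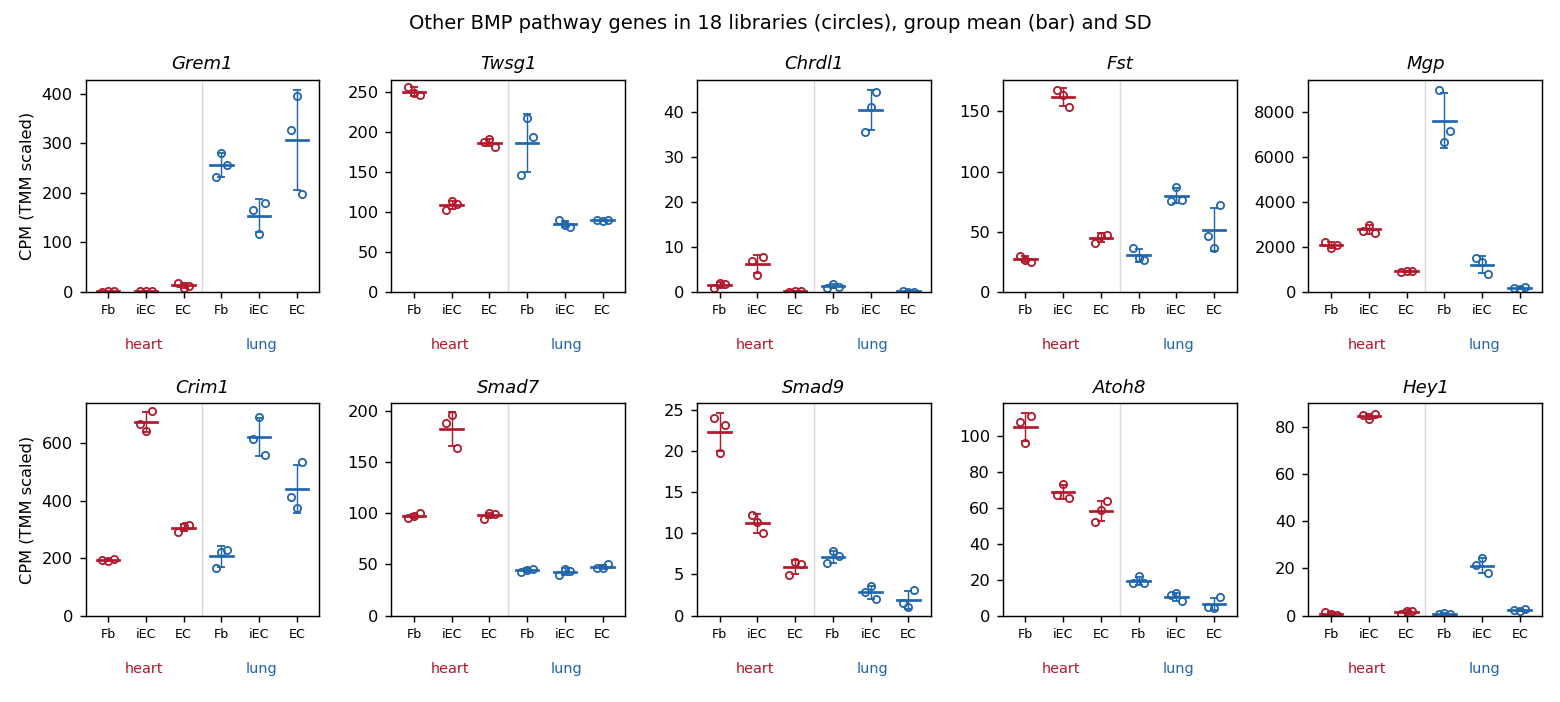
CPM of 10 other pathway genes (vertical axis, from 0) in every library (circles) with the mean (bar) and SD of each group, ordered as fibroblasts (Fb), iECs and native ECs of heart (red) and lung (blue). Grem1 was higher in every lung library than in every heart library, and Smad7, Atoh8 and Smad9 had higher group means in heart than in lung for each cell type.

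The genes with the most similar profiles were found by Pearson's r of log2 CPM over the 18 libraries, which share groups and depth scaling, among 10637 genes with a mean of at least 5 CPM. Bmp4 was most like Dll4 (r = 0.991), Notch4 (0.991) and Sema3g (0.978), which encode a Notch ligand, a Notch receptor and a semaphorin. Smad6 was most like Gata4 (0.975), a cardiac transcription factor gene, Smad7 (0.970) and Hrct1 (0.969). The closest profile to Bmp2 was Scarf1 (0.977), to Bmp6 Slf2 (0.969), to Bmper Tent5c (0.969), to Eng Gpr182 (0.959), to Acvrl1 Gne (0.973), to Bmpr2 Eif4g3 (0.953), to Id1 Emp1 (0.967) and to Id3 Ccn5 (0.986). Gpr182, an endothelial atypical chemokine receptor, read 32.4 CPM on average in heart ECs and 7.38 in lung ECs, against 4.16 in heart fibroblasts and at most 3.03 in the other groups.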

How the data were processed

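Polyadenylated RNA was measured in 18 libraries. The deposited table holds estimated counts per gene, made by the authors with Salmon (their processing notes also name DESeq2 and mm10, with no versions, and how transcripts were summed to genes is not given in the sources used here). All values are whole numbers, with no scaling of library totals. Of 35727 gene IDs 35422 had a symbol in GENCODE M21, and the 305 others held 0.0532% of counts. The analysis used edgeR 4.0.16 in R 4.3.3: filterByExpr (14864 genes, 99.97% of counts), TMM scaling and a robust quasi-likelihood fit with 1 coefficient per group over all 18 libraries (12 residual degrees of freedom, common biological coefficient of variation 0.135). P-values were adjusted by the Benjamini-Hochberg method over all tested genes within each of 12 contrasts, including differences between organs, and a gene was called under 0.05. The SE is the absolute log2 difference divided by the square root of F. The fit was tested on simulated counts, all drawn from heart fibroblast means with few genes changed. That setting is simpler than these data and does not test how the fit copes with the length deviation of lung fibroblast library 1.

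The 10 genes and the lists of 51 other pathway genes and of cell markers were chosen with earlier results of these data known. Of each list, counts are given with up to 3 called genes per direction with the largest change, if the higher of the groups averaged at least 5 CPM, and values of others; a gene that this rule names is not reported here. CPM per kilobase used the union of GENCODE exons on GRCm38. Alternatives were DESeq2 1.42.0, RLE and library total scaling, other filters, the replicate number as a block, models of just the groups compared and each library left out. Library total scaling was chosen after seeing the data. Replicates differed by more than counting error, 4.43 to 73.8 times (chi-squared per degree of freedom), so none were counted as 1 library.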

Additional observations from a re-analysis of the deposited data

Results flagged for a closer look

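The items below are contrasts that differed between heart and lung by a test of the difference itself (edgeR, adjusted p under 0.05), given as lung minus heart on the log2 scale. For iECs against fibroblasts the difference was 3.26 for Bmp2, 1.11 for Bmp6, 0.69 for Eng, 1.30 for Acvrl1, -1.66 for Bmper, -0.52 for Id3 and -0.59 for Smad6. The Smad6 call was lost without lung fibroblast library 2 (-0.51, adjusted p = 0.0532) or lung iEC library 3 (-0.50, adjusted p = 0.0531). For native ECs against fibroblasts it was 2.52 for Bmp2, 2.71 for Bmp4, 0.81 for Bmp6, 1.21 for Eng, 0.63 for Acvrl1, -2.42 for Bmper and -1.14 for Id3, with 34.5% of all tested genes called. For iECs against native ECs it was -2.74 for Bmp4, 0.76 for Bmper, -0.52 for Eng, 0.67 for Acvrl1 and 0.62 for Id3, with 26% of all tested genes called. The first 2 of these contrasts share their fibroblast libraries.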

How the results depend on the processing

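No difference that was called changed direction under the alternatives run. Differences near 0 that were not called could change sign. For Bmpr2 in lung ECs against lung fibroblasts the difference was 0.14, and -0.10 without lung fibroblast library 1. Scaling by library totals moved the median log2 difference of all genes by up to 0.19 and the share of calls that were higher in heart iECs than in heart fibroblasts from 51.4% to 69.3%; in the other 6 comparisons where it moved by over 10 points it reached 60.9% to 68.1%. Under it 3 of the 10 genes, not 5, were lower in heart iECs relative to fibroblasts, and 1787 genes, not 2804, were lower in lung iECs than in heart iECs. With at least 5 CPM in 3 libraries, fewer pathway genes were tested: 7 others, not 11, were lower in heart iECs than in heart ECs, 7, not 11, higher in lung iECs than in heart iECs, and 3, not 5, had a higher iEC response in lung. DESeq2 called 7 others, not 4, with a higher EC difference in lung (the cause was not tested). With each library left out in turn, 1 to 2 of the 10 genes were higher in lung ECs than in heart ECs (1 without heart EC library 2), 2 to 5 other pathway genes had a higher and 6 to 12 a lower iEC response in lung (12 without lung fibroblast library 1, 2 without heart iEC library 2), and 2 to 6 a higher EC difference (2 without heart fibroblast library 2). When the longest transcript gave the length, 29 of 48 shares per exon length (Bmp4, Bmp6, Gdf6, Acvrl1, Bmpr1a, Bmpr2, Id1 and Id3 in 6 groups) moved by more than 1 SD; that of Id1 became 25.5% in heart iECs, 15% in heart fibroblasts, 21.8% in lung iECs and 10.1% in lung fibroblasts. A group left with 2 libraries was tested with the spread shared by all groups. Replicate numbers did not pair the libraries (1 of 45 same-numbered pairs had r over 0.1, range -0.398 to 0.117, and 31 of 90 best matches shared the number). A replicate block left 5 of the 10 genes higher and 5 lower in heart iECs relative to fibroblasts, gave Id1 in lung iECs an adjusted p of 0.0671 (0.39) and gave Bmp2 a call for the difference between organs of iECs against ECs (0.77, adjusted p = 0.029). Fitting only the groups compared ended the calls of Eng (0.28, adjusted p = 0.0895) and Id1 (0.38, adjusted p = 0.132) in lung iECs and of Smad6 in lung iECs against lung ECs (0.50, adjusted p = 0.058). It added calls of Bmp6 (0.21, adjusted p = 0.00321) and Bmpr2 (0.34, adjusted p = 0.000241) as higher in heart ECs than in heart fibroblasts.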
